A study of Mus musculus with 8 samples.

Results

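Fatty acid oxidation is described here through 36 genes of mouse liver and colon, among 45777 genes measured: the receptor PPARA, the enzymes that carry and break down fatty acids in mitochondria and peroxisomes, 4 acyl-CoA thioesterases, and 3 further PPARA targets. The genes were taken by their NCBI identifiers from a list of symbols, and all 36 were found. They were set into 19 mitochondrial members (activation and carnitine shuttle, β-oxidation spiral, electron transfer), 9 peroxisomal members, 4 thioesterases, Ppara itself, and Pdk4, Angptl4 and Vnn1. Total RNA was sequenced from both tissues of control mice, mice with non-alcoholic steatohepatitis (NASH), and mice of the NASH model that received extracellular vesicles (EVs) of bovine colostrum, at a low dose in one group and a high dose in another. Each of the 4 groups had 1 library per tissue, 8 in all, and the study asked what the vesicles do to the transcriptomes of this model. That the EV groups carried the disease is taken from the design text. The sources used here do not give strain, sex, age, diet, dose amounts, time of treatment or pooling of animals.

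Long-chain fatty acids are activated to acyl-CoA, passed into mitochondria as carnitine esters, and shortened in repeated rounds of dehydrogenation, hydration, dehydrogenation and thiolysis. Peroxisomes shorten very long and branched chains with enzymes of their own and hand the products on. PPARA is a nuclear receptor that binds fatty acids, pairs with RXR on direct repeats of a hexamer, and raises the genes of this pathway in the fasting liver. Thioesterases release free fatty acids and coenzyme A from acyl-CoA.

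Values are FPKM, a unit that divides fragments by transcript length and by the library's mapped fragments. With 1 library per group there is no error and no test: every ratio describes 2 libraries, and how far animals of 1 group differ cannot be read from them. Log2 ratios were taken on log2(FPKM + 1), where genes near 1 FPKM show less than their full ratio, and are given relative to the median gene of the tissue. That gene lay 0.55 log2 units higher in the NASH than in the control liver, and -0.14 and -0.13 off in EV low and EV high dose over NASH. In colon it lay between -0.06 and 0.08. Genes were kept in a tissue at 1 FPKM or more in at least 1 of its 4 libraries, which held for 12866 genes in liver and 15245 in colon. All 36 members were kept in liver and 35 in colon, where Acot3 was not. Members are called 2-fold apart at 1 log2 unit or more.

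Albumin RNA (Alb) was at 15525 FPKM or more in the 4 liver libraries and at 5.18 or less in the colon, and the epithelial gene Epcam at 591 or more in colon and 1.61 or less in liver. The smallest repeated step of the values of a 1 kb gene was 0.0157 to 0.0229 FPKM in liver and 0.0236 to 0.0307 in colon. By that step the liver control library was 1.96 times as deep as the shallowest library, colon NASH.

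In the control liver the members spanned from Cpt1b, the muscle form of carnitine palmitoyltransferase, at 0.649 FPKM to Acaa2, the mitochondrial thiolase, at 496 FPKM. The 4 liver libraries lay above the 4 colon libraries in 27 of 36 members and below them in none, where 12.6% of all genes kept in either tissue lay above and 54.8% below. All 9 peroxisomal members and all 3 electron transfer members were on the liver side. The widest gap among peroxisomal members was that of Acaa1b, a peroxisomal thiolase, with a median of 548 FPKM in liver and 6.43 in colon. Its copy Acaa1a, by contrast, had medians of 100.1 and 43.5 FPKM. Mitochondrial members were closer between the tissues: 12 of 19 lay above colon in liver and 7 overlapped. Slc25a20, the carnitine-acylcarnitine carrier, had a liver median of 67.0 and a colon median of 72.5 FPKM, and Acads, the short-chain acyl-CoA dehydrogenase, had 67.4 and 77.0. These medians do not set the tissues apart, since the libraries overlap in both genes. Libraries of different groups are not replicates of a tissue, so the order is a description.

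**Figure D1:**
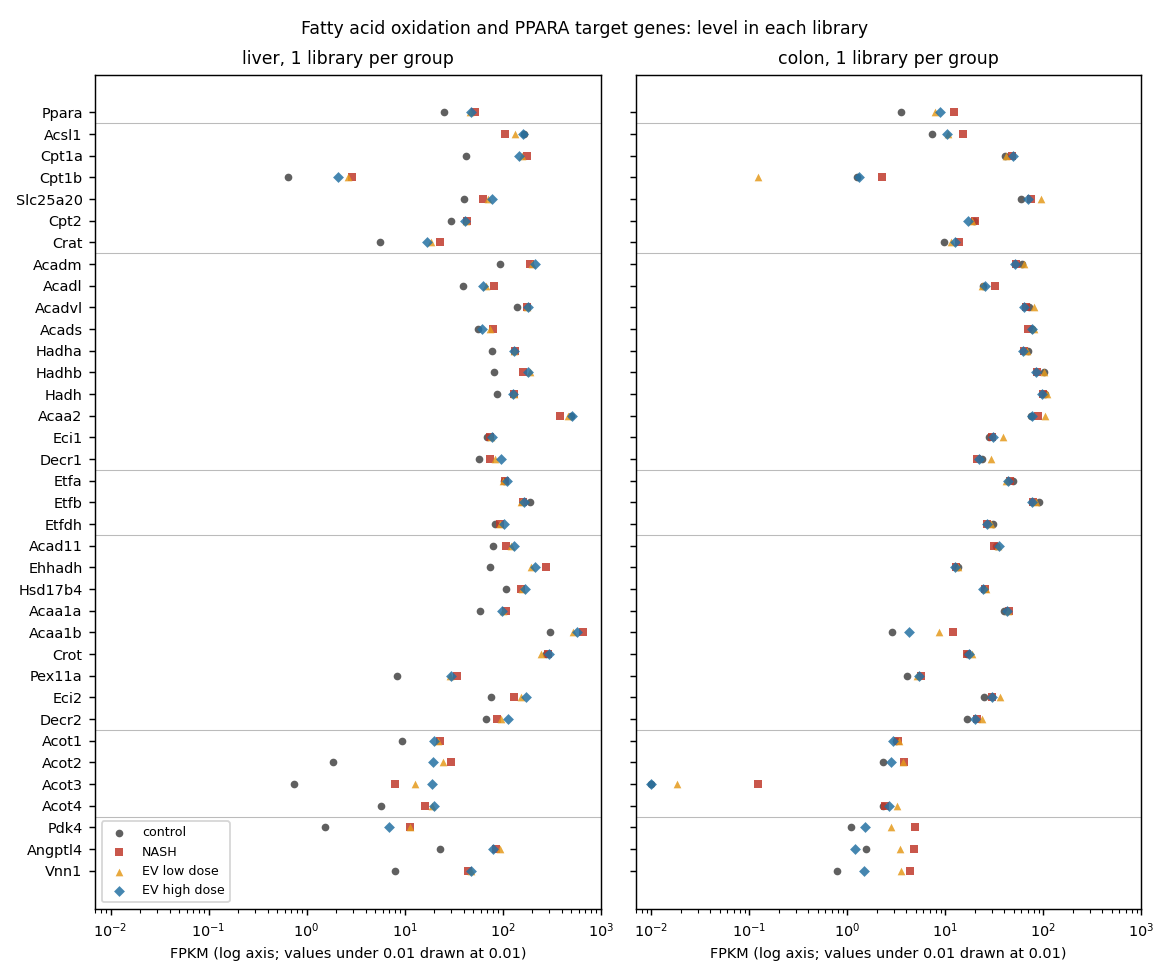
FPKM (log axis) of the 36 members in liver and in colon, with 1 point per library, lines between role groups, and values under 0.01 drawn at 0.01. Most mitochondrial members lie near 100 FPKM in liver with the 4 libraries close together, while Cpt1a, Crat, Pex11a, Acot2, Acot3, Pdk4 and Vnn1 show the control library apart to the left.

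Relative to the median gene, the NASH liver held 2-fold more RNA than the control liver for 2 of 6 activation and shuttle genes, 2 of 9 peroxisomal members, 2 of 4 thioesterases and the 3 further PPARA targets, and all 10 members of the mitochondrial spiral were within 2-fold. Of the 36 members 9 were 2-fold higher, where 7.21% of all genes were, and 1 was 2-fold lower, where 7.66% were. The 9 were Cpt1a, Crat, Ehhadh, Pex11a, Acot2, Acot3, Pdk4, Angptl4 and Vnn1, and the 1 lower member was Acsl1. As deposited, without centring on the median gene, 15 members were 2-fold higher and none lower. In that scale 2633 of all 12866 genes kept were 2-fold higher and 416 lower. The median of the members was 0.28, and the middle 50% of all genes ran from -0.36 to 0.35. By compartment the medians were -0.02 for the 19 mitochondrial members, 0.23 for the 9 peroxisomal and 1.31 for the 4 thioesterases. That order held under each scaling tried, though the mitochondrial median itself stood at 0.53 as deposited and at -0.21 after median-of-ratios scaling. Crat, Acad11 and Eci2 were treated as members placed in both compartments. Without them the mitochondrial median was -0.05 and the peroxisomal 0.32.

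**Figure D2:**
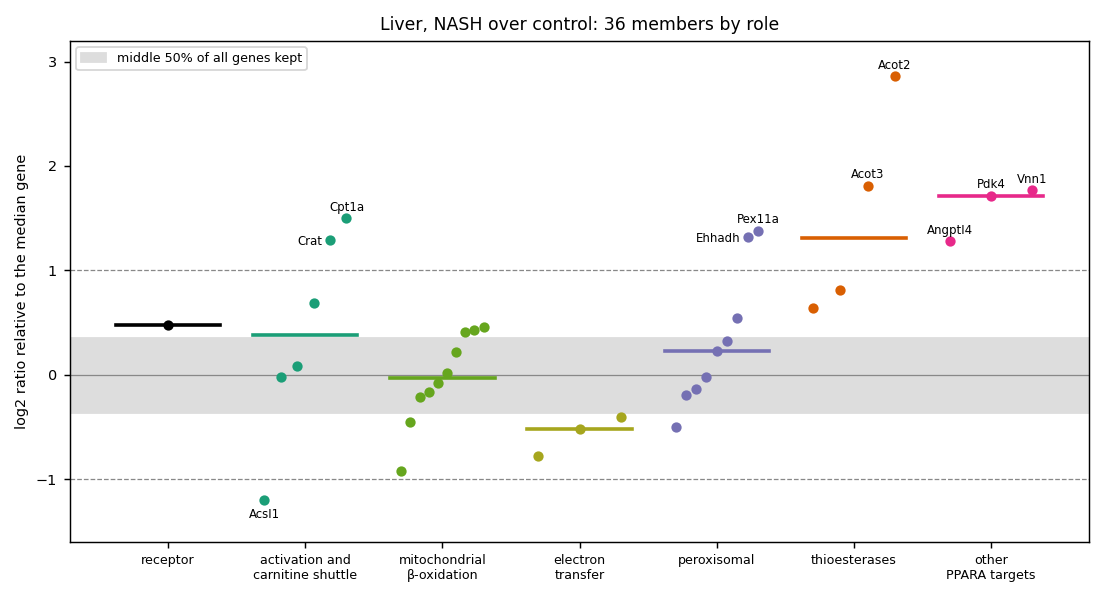
Log2 ratio of the NASH over the control liver library, relative to the median gene, for the 36 members by role; thick bars are medians of the members, the grey band holds the middle 50% of all genes and dashed lines mark 2-fold. The β-oxidation spiral lies inside the dashed lines, Acot2 stands highest at 2.86 and Acsl1 lowest at -1.20.

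Ppara, the receptor (gene ID 19013, chromosome 15, 85734910 to 85806851), was at 25.4 FPKM in the control liver, 52.7 in NASH, 47.0 in EV low dose and 47.6 with EV high dose. Control was the lowest library and the other 3 lay close together. Its log2 ratio in NASH over control was 0.47, short of 2-fold.

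Among the genes of activation and the carnitine shuttle, Cpt1a stood out. It encodes the liver carnitine palmitoyltransferase that commits long chains to mitochondrial entry (gene ID 12894, chromosome 19, 3322326 to 3385735). Cpt1a was at 42.3 FPKM in control, 179 in NASH, 157 in EV low dose and 145 with EV high dose, with a ratio of 1.5 in NASH over control. All 3 libraries of the NASH model lay above control. Crat, carnitine acetyltransferase, was at 5.60, 22.7, 18.7 and 16.9 FPKM in the same order, with a ratio of 1.29. Acsl1, the main long-chain acyl-CoA synthetase of liver, went the other way, with 166 FPKM in control, 106 in NASH, 134 in EV low dose and 161 with EV high dose. As deposited, NASH was the lowest library and EV high dose came close to control. Relative to the median gene the high dose stayed under control at -0.43, and the low dose at -0.70. The ratio in NASH over control was -1.20. It stayed past 2-fold in 4 of 9 settings of pseudocount, scaling and filter, with a range from -1.41 to -0.26. The later steps of the shuttle were near the median gene, Cpt2, the inner-membrane transferase, at -0.02 and Slc25a20 at 0.08. Cpt1b stayed at 2.89 FPKM or less in liver, with a ratio of 0.68.

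All 10 members of the mitochondrial spiral were within 2-fold, with a median of -0.03. Acaa2 was the lowest, at 496 FPKM in control, 385 in NASH, 468 in EV low dose and 516 with EV high dose, with a ratio of -0.92. Acadl, the long-chain acyl-CoA dehydrogenase, was the highest at 0.46, with 39.8, 81.3, 67.2 and 62.8 FPKM. Hadha and Hadhb, the subunits of the trifunctional protein, whose genes start 273 bases apart on opposite strands of chromosome 5, had ratios of 0.22 and 0.41. Hadha was at 78.5 and 135 FPKM in control and NASH, and Hadhb at 82.2 and 161. Acadm, the medium-chain dehydrogenase, stood at 0.43 and Acadvl, the very-long-chain one, at -0.21. The electron transfer flavoprotein, which takes electrons from these dehydrogenases, lay lower: Etfa at -0.52, Etfb at -0.77 and Etfdh at -0.41. Etfb was at 190 FPKM in control and 163, 152 and 165 in NASH, EV low dose and EV high dose, and Etfdh, the dehydrogenase that passes the electrons on, at 84.6, 93.6, 94.6 and 102. As deposited Etfa and Etfdh were on the other side of 0, at 0.03 and 0.14, so their sign rests on the centring. Of the 100-base windows of Hadhb 52.8% also occurred in Gm13910, and of Etfb 65.2% in Gm45233, so the assignment of fragments to these 2 members is uncertain.

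The peroxisomal members were uneven. Ehhadh, the bifunctional enzyme of peroxisomal β-oxidation and a classical PPARA target (gene ID 74147, chromosome 16, 21761285 to 21787834), was at 74.1 FPKM in control, 275 in NASH, 195 in EV low dose and 216 with EV high dose, a ratio of 1.32 in NASH over control. Pex11a, a membrane protein of peroxisome division (gene ID 18631, chromosome 7, 79735957 to 79743131), was at 8.28, 34.5, 29.2 and 29.6 FPKM, a ratio of 1.38. Control was the lowest library for both genes, and NASH the highest. The other 7 were within 2-fold, from Crot, carnitine octanoyltransferase, at -0.50 to Acaa1b at 0.55. Crot was at 279, 290, 244 and 296 FPKM, so the libraries were close as deposited. Hsd17b4, the second bifunctional enzyme, which handles branched chains and bile acid precursors, stood at -0.02. The reductase Decr2 and the isomerase Eci2, which handle double bonds, stood at -0.19 and 0.23. Acaa1a and Acaa1b share 96.5% of the aligned coding bases, so the division of fragments between them is uncertain. Their sum was at 365 FPKM in control and 766 in NASH, a ratio of 0.51.

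All 4 thioesterases were above the median gene in the NASH liver, and 2 of them 2-fold. Their genes lie close together on chromosome 12 between 83987861 and 84060400. Acot2, the mitochondrial form, was at 1.86 FPKM in control, 29.5 in NASH, 24.9 in EV low dose and 19.5 with EV high dose. Its ratio of 2.86 was the largest of the 36 members. Acot3, a peroxisomal form, was at 0.747, 7.99, 12.9 and 19.3 FPKM, a ratio of 1.81, which was past 2-fold in 8 of 9 settings and 0.89 at its lowest. Acot4, also peroxisomal, stood at 0.81 (5.73, 16.3, 18.9 and 19.9 FPKM) and the cytosolic Acot1 at 0.64 (9.51, 23.0, 22.1 and 19.8 FPKM). In the control liver Acot1 was above Acot2, in NASH and EV low dose Acot2 was above Acot1, and in EV high dose Acot1 was again slightly above Acot2.

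Because the separate values of this pair rest on telling near-identical copies apart, the coding stretch where Acot1 and Acot2 differ most is shown, from the longest coding transcripts of GENCODE M21, positions 823 to 882 of Acot1 and 946 to 1005 of Acot2. Capitals mark the 13 of 60 bases that differ.
Acot1: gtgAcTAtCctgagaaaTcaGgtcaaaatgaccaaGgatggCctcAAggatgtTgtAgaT
Acot2: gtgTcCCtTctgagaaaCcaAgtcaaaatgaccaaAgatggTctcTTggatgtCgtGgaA
Over the aligned coding bases the pair was 95.3% identical, with 1 identical run of 273 bases. Of the 100-base windows of the Acot2 transcript 17.1% also occurred in Acot1, and the other windows were its own. Summed, the pair was at 11.4 FPKM in control, 52.4 in NASH, 47.0 in EV low dose and 39.3 with EV high dose, a ratio of 1.56 in NASH over control, which does not depend on the division between the copies. Acot3 was 83.9% identical to each of Acot1 and Acot2. Of the 100-base windows of Acot3 14.3% also occurred in other genes, with 9.9% in Gm49366.

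The 3 remaining PPARA targets were all 2-fold higher in the NASH liver. Vnn1, the pantetheinase vanin-1 (gene ID 22361, chromosome 10, 23894688 to 23905344), was at 7.98 FPKM in control, 43.9 in NASH, 47.6 in EV low dose and 47.5 with EV high dose, a ratio of 1.77. Pdk4, the kinase that switches off pyruvate dehydrogenase, was at 1.56, 11.3, 11.3 and 6.86 FPKM, a ratio of 1.72. Angptl4, a secreted inhibitor of lipoprotein lipase, was at 23.1, 84.7, 93.1 and 80.3 FPKM, a ratio of 1.28. Each of the 3 had its lowest library in control, and Pdk4 alone of them had EV high dose well below the other 2 libraries of the model.

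The members that stood apart were mostly the less abundant ones. Of 11 members with a mean under 50 FPKM over the 4 liver libraries, 6 were 2-fold higher in NASH, where 7.26% of all genes of that level were. Of 25 members at 50 FPKM or more, 3 were 2-fold higher and 1 lower, where 6.66% and 27.4% of all such genes were. Abundant liver genes as a whole thus stood low in this ratio. Among the 912 genes whose mean lay between the quartiles of the members (38.3 to 144 FPKM) the median was -0.38, and 29 of 36 members were above it. The means hold the NASH library as well, so the split is not free of the ratio.

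Cell type markers differed between the NASH and control libraries as well. The 8 hepatocyte markers summed to 35450.5 FPKM in control, 24462 in NASH, 25362 in EV low dose and 26219 with EV high dose, with 3 of 8 2-fold lower in NASH. All 8 had a liver mean of 50 FPKM or more. At that level 27.4% of all genes were 2-fold lower and the median was -0.51, so this count says little about hepatocytes as such. The 6 macrophage markers summed to 85.9, 492, 445 and 521 FPKM, with 6 of 6 2-fold higher, where 7.21% of all genes were. The 4 matrix and stellate cell markers summed to 68.9, 284, 252 and 265 FPKM, with 4 of 4 2-fold higher, among them the collagen gene Col3a1 at 3.06. Of the 4 cholangiocyte markers 2 were kept and 1, Spp1, was 2-fold higher at 1.59, and the 3 endothelial markers were within 2-fold. In bulk tissue fewer cells of a type and less RNA per cell cannot be told apart. The part of cell composition in the members' ratios was not tested. The white adipocyte markers Adipoq, Plin1, Lep and Retn were listed at 0 in all 4 liver libraries. Cfd was at 0.203 FPKM in control and listed at 0 in NASH, EV low dose and EV high dose.

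PPARA binds with RXR to a direct repeat of a hexamer with 1 base between, so the RefSeq promoter windows (250 bases before to 50 after the start, GRCm38.p6) were searched on both strands for the hexamer AGGTCA, any 1 base, and AGGTCA again, with at most 2 mismatches in the 12 fixed bases. Crat, Cpt1b, Acaa2, Decr1, Hsd17b4, Angptl4 and Vnn1 had no window and were not searched. Of these Crat, Angptl4 and Vnn1 were 2-fold higher in the NASH liver. Windows were found for 29 members. A match was present in 3 of these (10.3%), where 4.4% of all 27025 genes with a window had one, and none of the 29 had a match with 1 mismatch or fewer. The 3 sites are shown on the strand that reads as the repeat, with the 13 bases of the match in capitals.
Acot4: gcacagacCGGCCAAAGGTCAtgcttcgg
Etfa: ttgggagtAGGGCAAAGGTAAgggtgtgc
Slc25a20: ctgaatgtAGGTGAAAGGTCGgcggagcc
Where a gene had several windows, the one with the fewest mismatches was used. The Acot4 site lies on the minus strand at chr12:84038366-84038378, centred 7 bases upstream of the start used for its window. That window, 84038129 to 84038428, lies inside the gene, which begins at 84037254. The Etfa site is at chr9:55512308-55512320, 71 bases upstream on the plus strand, and the Slc25a20 site at chr9:108662142-108662154, 12 bases downstream on the plus strand. None of these 3 genes was 2-fold apart in NASH over control. A match is a description of letters in this window, and a window without one says nothing of sites elsewhere in a gene.

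Other genes of the pathway were read from 7 lists, beside 7.21% of all genes 2-fold higher and 7.66% lower in NASH over control. Other PPARA targets had 7 of 16 kept genes 2-fold higher and 1 lower, with a median of 0.76. The largest were the hormone Fgf21 (3.78), the fatty acid receptor Cd36 (3.38), the mitochondrial carrier Ucp2 (2.34) and the omega-hydroxylase Cyp4a31 (1.96), and the lower one was the fatty acid binding protein Fabp1 (-1.85). Fgf21, Cd36 and Cyp4a31 were known from earlier results on these libraries when the list was written. Other mitochondrial genes had 2 of 10 higher (Acsl4, an acyl-CoA synthetase, at 1.28 and the carnitine importer Slc22a5 at 1.26) and 2 lower (Acacb, which makes malonyl-CoA at the mitochondrion, at -1.66 and Hsd17b10 at -1.58). Ketogenesis had 5 of 5 within 2-fold, from Acat1 at -0.54 to Bdh1 at 0.69.

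Of 16 peroxisomal genes outside the 36 members 5 were 2-fold lower and none higher, with a median of -0.59. The 5 all had a liver mean of 50 FPKM or more, a level at which 27.4% of all genes were 2-fold lower and the median was -0.51, so the count and the median say little about peroxisomal genes as such. Nudt7, which cleaves peroxisomal coenzyme A, was at 369 FPKM in control, 50.3 in NASH, 78.0 in EV low dose and 118 with EV high dose, a ratio of -3.40. Hacl1, the lyase of α-oxidation, was at 137, 24.2, 36.7 and 47.1 FPKM, a ratio of -3.0. Pecr, a trans-enoyl-CoA reductase, stood at -1.90, Phyh, which starts α-oxidation of phytanic acid, at -1.34 and catalase (Cat) at -1.23. Control was the highest library for each of these 5 genes. Peroxisome biogenesis had 15 of 15 within 2-fold (median -0.23, lowest Pex16, an early assembly factor, at -0.93). Among other thioesterases 1 of 6 was 2-fold higher, the mitochondrial Acot9 at 1.90, and Acot13 was lowest at -0.53. Of 11 receptors and coregulators kept, Pparg (1.35) and the phosphatase Lpin1 (1.18) were 2-fold higher and the deacetylase Sirt3 was lower (-1.16).

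With the low EV dose none of the 36 members was 2-fold apart from NASH in liver, where 0.668% of all genes were in either direction (0.443% higher, 0.225% lower). The median of the members was 0.14. The ratios ran from Ehhadh at -0.36 to Acot3 at 0.76, with Acsl1 at 0.47 and Acaa2 at 0.42. By compartment the medians were 0.14 for mitochondrial, 0.03 for peroxisomal and 0.21 for thioesterase members.

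With the high EV dose 1 of 36 members was 2-fold apart, where 1.19% of all genes were in either direction (0.816% higher, 0.373% lower). This was Acot3, at 19.3 FPKM against 7.99 in NASH, with a ratio of 1.31, or 0.98 with a pseudocount of 5 FPKM. Its 4 liver values (given above) stood in the order control, NASH, EV low dose, EV high dose, so that the high dose lay farthest from control. The other 35 ran from Pdk4 at -0.51 to Acsl1 at 0.73, with a median of 0.16 over all 36. Acot2 stood at -0.43 and Crat at -0.27, while Acaa2 stood at 0.56, Eci2 at 0.53, Decr2 at 0.52 and Decr1, the mitochondrial dienoyl-CoA reductase, at 0.50. The medians were 0.19 for mitochondrial, 0.16 for peroxisomal and 0.17 for thioesterase members, so the compartment medians lay close together in this ratio. The 2 doses are both read against the same NASH library. Between the doses themselves, which do not share it, all 36 members were within 2-fold, from Pdk4 at -0.65 to Acot3 at 0.54, where 0.466% of all genes were apart (0.303% higher, 0.163% lower).

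**Figure D3:**
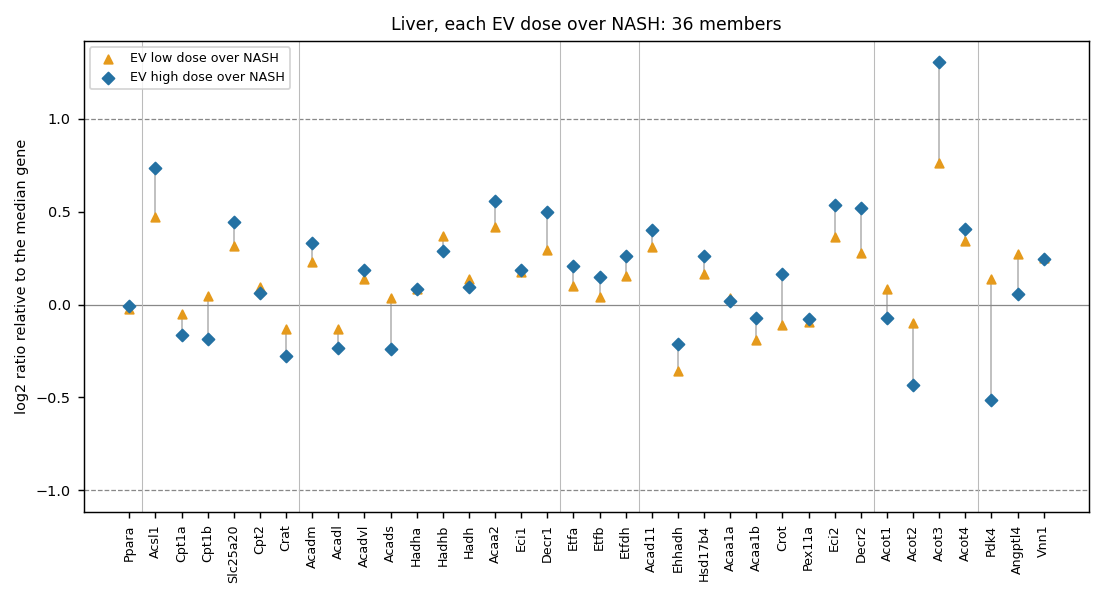
Log2 ratio of each EV dose over NASH in liver, relative to the median gene, for the 36 members in role order; dashed lines mark 2-fold and grey bars join the 2 doses of a gene. Acot3 at the high dose (1.31) is the point beyond 2-fold, and Acsl1, Acaa2, Eci2 and Decr2 lie above 0 at both doses.

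Against control, the members that were 2-fold higher numbered 9 of 36 in EV low dose, where 6.5% of all genes were, and 10 of 36 in EV high dose, where 6.28% were. No member was 2-fold lower in either (5.69% and 5.14% of all genes). In EV low dose Cpt1a stood at 1.48, Pex11a at 1.31, Acot2 at 2.79, Vnn1 at 2.05 and Pdk4 at 1.88. In EV high dose the same genes stood at 1.37, 1.34, 2.46, 2.05 and 1.24. Acsl1 stood at -0.70 and -0.43. These ratios share the control library with NASH over control.

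In colon, Ppara, the thiolase gene Acaa1b, Pdk4, Angptl4 and Vnn1 were 2-fold higher in the NASH library than in control, and all 19 mitochondrial members were within 2-fold. Of the 35 members kept 5 were 2-fold higher in NASH than in control, where 2.12% of all genes were, and none was lower, where 2.26% were. The median was 0.04, with -0.10 for the 19 mitochondrial and 0.13 for the 9 peroxisomal members. Ppara was at 3.55 FPKM in control, 12.5 in NASH, 7.85 in EV low dose and 8.97 with EV high dose, a ratio of 1.5. Acaa1b was at 2.86, 12, 8.62 and 4.25 FPKM, a ratio of 1.69. For both genes NASH was the highest library and control the lowest. The sum of Acaa1a and Acaa1b, whose division is uncertain, was at 42.5, 57.4, 52.9 and 46.8 FPKM, a ratio of 0.36. Acaa1a made up most of that sum, with 39.7 FPKM in control and 45.4 in NASH. With near-identical pairs summed, 4 members were 2-fold higher.

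The same 3 targets as in liver made up the rest. Vnn1 was at 0.790 FPKM in control, 4.35 in NASH, 3.58 in EV low dose and 1.47 with EV high dose, a ratio of 1.52. Pdk4 was at 1.10, 4.97, 2.80 and 1.53 FPKM, a ratio of 1.45, and Angptl4 at 1.56, 4.85, 3.47 and 1.21 FPKM, a ratio of 1.13. All 3 are low in colon, below 5 FPKM in every library, and each was past 2-fold in 7 of 9 settings, short of it with a pseudocount of 5 FPKM and not kept with a filter at 5 FPKM. Acsl1, the highest of the shuttle, was at 7.27, 15.4, 10.8 and 10.5 FPKM, a ratio of 0.92, and Cpt2, the lowest, at 19.6, 20.1, 18.7 and 17.1 FPKM, a ratio of -0.03. Cpt1a stood at 0.18, Ehhadh at -0.10, Acot2 at 0.47 and Pex11a at 0.34. The spiral ran from Hadhb (103, 87.5, 102 and 85.1 FPKM) at -0.30 to Acadl (24.3, 32.2, 23.9 and 25.8 FPKM) at 0.33. Electron transfer ran from Etfb (91.3, 79.4, 84.5 and 76.7 FPKM) at -0.26 to Etfa (49.5, 46.4, 42.1 and 43.6 FPKM) at -0.15. For each of these 4 genes the colon libraries lay within 2-fold of each other. Among peroxisomal members Acad11, an acyl-CoA dehydrogenase, was lowest at -0.13 (33.1, 31.5, 34.7 and 35.3 FPKM), and of the 3 thioesterases kept Acot1 was lowest at -0.01 (3.14, 3.29, 3.36 and 2.96 FPKM) and Acot2 highest (2.34, 3.83, 3.69 and 2.79 FPKM). Acot3 stayed at 0.125 FPKM or less.

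The high EV dose held less of 4 of these members than the NASH colon. Of 35 members 4 were 2-fold lower, where 1.48% of all genes were, and none was higher, where 1.08% were (2.56% in either direction). Angptl4 stood at -1.42, Acaa1b at -1.33, Pdk4 at -1.25 and Vnn1 at -1.13, while Ppara stood at -0.45. With a pseudocount of 5 FPKM none of the 4 was past 2-fold. The sum of Acaa1a and Acaa1b stood at -0.30, and with near-identical pairs summed 3 members were called. The median over the 35 was -0.07. In EV low dose over NASH 1 of 35 was 2-fold lower and none higher, where 1.61% and 1.06% of all genes were (2.68% in either direction). This was Cpt1b (ratio -1.49), at 1.27 FPKM in control, 2.29 in NASH, 0.123 in EV low dose and 1.34 with EV high dose.

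The Cpt1b value turns on how fragments were assigned. Of its 100-base windows 91.1% also occurred in Gm44502, a readthrough transcript model. Gm44502 was listed at 0.406, 1.90, 2.01 and 0.408 FPKM in control, NASH, EV low dose and EV high dose. The sum of the pair was at 1.68, 4.19, 2.14 and 1.75 FPKM, and its ratio in EV low dose over NASH was -0.67, short of 2-fold. In EV high over EV low dose 1 of 35 members was 2-fold apart, Angptl4 at -1.09, where 1.52% of all genes were (0.794% lower, 0.728% higher). Vnn1 stood at -0.96, Acaa1b at -0.95 and Cpt1b, on the other side, at 0.98. As deposited Cpt1b was past 2-fold higher, while its sum with Gm44502 was at 2.14 FPKM in EV low dose and 1.75 with EV high dose.

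Against the control colon, EV low dose had 2 of 35 members 2-fold higher, Vnn1 at 1.36 and Acaa1b at 1.32, where 1.15% of all genes were. The sum of Acaa1a and Acaa1b was at 52.9 FPKM in EV low dose against 42.5 in control. EV low dose had 1 member 2-fold lower, Cpt1b at -1.01, where 1.73% of all genes were (2.89% in either direction). The sum of Cpt1b and Gm44502 went the other way, with 2.14 FPKM in EV low dose against 1.68 in control. EV high dose had 1 of 35 higher, Ppara at 1.06, where 1.12% were, and none lower, where 1.59% were (2.71% in either direction). Vnn1 stood at 0.39 in that library.

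Fat cell markers were also higher in the NASH colon. Of the 5 white adipocyte markers 4 were kept, and 4 of 4 were 2-fold higher in NASH over control and 4 of 4 lower in EV high dose over NASH. They summed to 38 FPKM in control, 136 in NASH, 66.5 in EV low dose and 18.6 with EV high dose. Adipoq, the adipocyte hormone adiponectin, was at 5.31, 19.8, 9.63 and 3.16 FPKM. The 3 brown adipocyte markers summed to 0.173, 19.0, 0.438 and 0.304 FPKM, and Ucp1, the uncoupling protein of brown fat, was at 15.2 FPKM in NASH and listed at 0 in the other 3 colon libraries. In EV high dose over control, Adipoq stood at -0.67, Plin1 at -0.48, Cfd at -1.18 and Retn at -0.57. Angptl4 was also below 0 there, at -0.28, while Ppara stood at 1.06, Vnn1 at 0.39, Acaa1b at 0.37 and Pdk4 at 0.19. The part of fat tissue in the ratios of Ppara, Acaa1b, Pdk4, Angptl4 and Vnn1 was not tested. The 6 epithelial markers and the 4 smooth muscle markers were within 2-fold in each of these ratios.

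**Figure D4:**
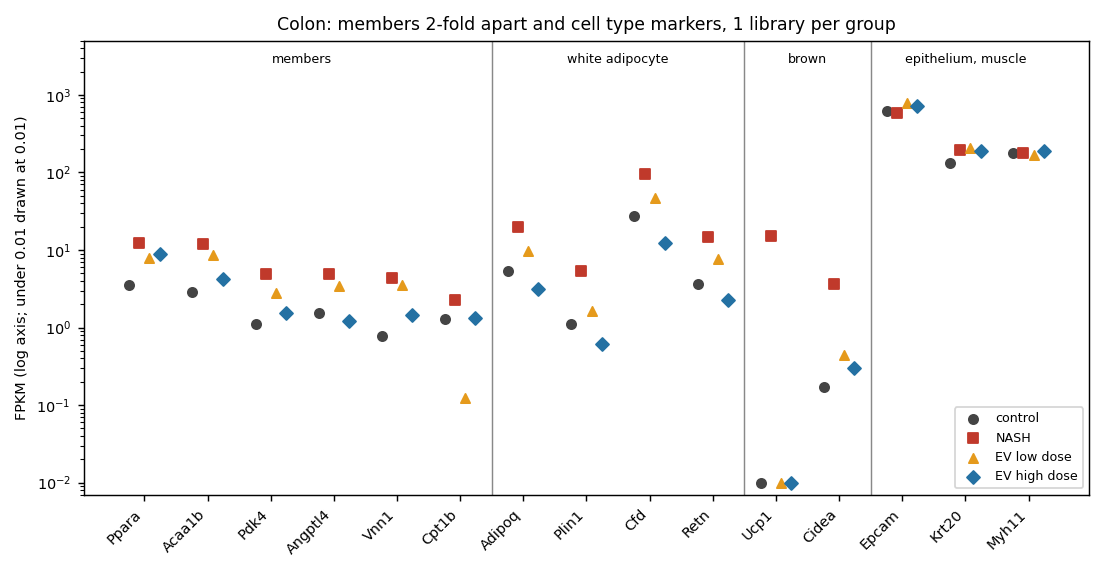
FPKM (log axis) in the 4 colon libraries for the 6 members that were 2-fold apart in a colon ratio, and for markers of white fat, brown fat, epithelium and smooth muscle, with values under 0.01 FPKM drawn at 0.01. NASH is the highest library for Ppara, Acaa1b, Pdk4, Angptl4 and Vnn1 and for the fat markers, with Adipoq at 19.8 against 5.31 in control and 3.16 in EV high dose.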

How the data were processed

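The authors deposited FPKM for all 8 libraries in a single table, and each column was matched to a sample through its title and description. Per the labels, libraries were made from total RNA with a TruSeq Stranded Total RNA kit, while HISAT2, StringTie, Trimmomatic 0.38 and the mm10 build are listed, without role or order, per the submitters' processing notes. Of 45777 identifiers 45679 were matched to symbols of RefSeq GRCm38.p6. Low values fell on steps, which give relative depth only, so no count test was run. Ratios were taken on log2(FPKM + 1) for genes at 1 FPKM or more in at least 1 library of the tissue, less the median of those genes, and called at 2-fold. Code was tested on simulated data. The members and lists were chosen with earlier results of these data known. Every member may be named; values in all 4 libraries are given for members 2-fold apart and for the extremes of a role group, and up to 4 genes per further list, by size of ratio in liver NASH over control. Cat and Fabp1, and markers given by value, were added after their values were seen. Coding identity and shared 100-base windows came from GENCODE M21, in place of a planned protein identity. Alternatives were pseudocounts of 0.1 and 5 FPKM, 3 other scalings, no filter or 5 FPKM, means and summed pairs. Others were leaving out members placed in both compartments and, added after the data were seen, centring on genes of like level. Python 3.11.15, numpy 2.4.6, pandas 2.3.3 and Biopython 1.88 were used.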

Additional observations from a re-analysis of the deposited data

Results flagged for a closer look

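Acsl1, the long-chain acyl-CoA synthetase, lay in opposite directions in the tissues: its log2 ratio of NASH over control was -1.20 in liver and 0.92 in colon. Each value compares 2 libraries, and the difference between the tissues was not tested.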

How the results depend on the processing

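With 1 library per group no error is known, and leaving out a replicate was not possible. No paired analysis was possible because each group holds 1 library per tissue and the labels carry no replicate numbers. Of 164 values under 11 alternatives for 17 results, 106 held within 0.1 log2 units (medians) or 1.5 times (counts). Centring on genes of like level was chosen after seeing the data. The liver medians in NASH over control moved with scaling, and also with the pseudocount and with no filter. The cause of these and other moves was not tested.

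For liver NASH over control, the median of all members (0.28) was 0.13 and 0.46 with pseudocounts of 0.1 and 5 FPKM, 0.83 as deposited, 0.07 after median-of-ratios scaling, 1.21 at the same summed FPKM, 0.66 with no filter, 0.41 as a mean, and 0.66 relative to genes of like level. Members higher (9) numbered 15 as deposited, where 2633 of all 12866 genes were higher, and 21 at the same summed FPKM. The share of all genes at the same summed FPKM was not taken. Members lower (1) numbered 2 with a pseudocount of 0.1 FPKM and after median-of-ratios scaling, and 0 with a pseudocount of 5 FPKM, as deposited, at the same summed FPKM, with no filter and relative to genes of like level. In the same order of settings without the mean, the mitochondrial median (-0.02) was -0.16, 0.19, 0.53, -0.21, 0.91, 0.36 and 0.36, and the peroxisomal median (0.23) was 0.08, 0.47, 0.78, 0.02, 1.16, 0.61 and 0.61, or 0.10 with near-identical pairs summed. The thioesterase median (1.31) was 1.67 and 0.80 with the pseudocounts, 1.86 as deposited, 2.15 at the same summed FPKM, 1.69 with no filter and relative to genes of like level, 1.56 with pairs summed and 1.53 as a mean.

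For the liver EV ratios over NASH, the low dose median (0.14) was -0.00 as deposited, -0.15 at the same summed FPKM and -0.03 relative to genes of like level, and the high dose median (0.16) was 0.02, -0.10 and -0.05. The 1 member called at the high dose became 0 with a pseudocount of 5 FPKM. For colon NASH over control, the median (0.04) was 0.22 at the same summed FPKM and 0.26 as a mean, and members higher (5) numbered 1 with a pseudocount of 5 FPKM and 2 with a filter at 5 FPKM. The colon EV low dose median (0.11) was -0.09 and 0.01 in those first 2 settings, and the high dose mean was -0.25. With a pseudocount of 5 FPKM the low dose had 0 members called and the high dose 0, and with a filter at 5 FPKM 0 and 1.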

Other observations

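Among the PPARA-related genes outside the 36 members, several had a high EV dose value of their own. These genes were named after their values were seen. In liver, Nudt7 and Hacl1 were 2-fold higher in EV high dose over NASH (1.34 and 1.06), where 0.816% of all genes were, and the median of the 16 other peroxisomal genes was 0.41, beside 0.16 for the 9 peroxisomal members. Both genes stayed under control, at -2.02 and -1.91 in EV high dose over control. Both had their lowest library in NASH, and the EV ratios over NASH share that library. Among the 912 liver genes with a mean between 38.3 and 144 FPKM, 2.74% were 2-fold higher in EV high dose over NASH and the median was 0.21. Fgf21 was lower, at 0.641 FPKM in control and 32.1, 16.4 and 10.9 in NASH, low dose and high dose. Elovl3, a fatty acid elongase, was not in the PPARA-related lists but among the brown adipocyte markers. It was at 188 FPKM in the control liver and at 1.44, 2.14 and 3.69 FPKM in NASH, EV low dose and EV high dose.

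In colon, 2 of 11 other PPARA targets were 2-fold higher in NASH over control, where 2.12% of all genes were. Cd36 was at 8.57 FPKM in control, 22.9 in NASH, 12.9 with the low dose, 6.75 with the high dose, and Ucp2 at 32.4, 79.6, 37.4 and 62.5. Ppard, the related receptor of wide expression, was at 7.26, 16.9, 5.15 and 10.4 FPKM. Cd36 is also made by adipocytes, and its lowest library was EV high dose, as for the white adipocyte markers. The part of fat tissue in its values was not tested. Ucp2 and Ppard had their lowest EV value at the low dose.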
